A study of Homo sapiens with 36 samples.

Results

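Long noncoding RNA (lncRNA) exon windows are the stretches of at most 100 nt that the authors listed as enriched by eCLIP and whose leading feature type in their tables is a lncRNA exon. They were taken from the lists of 9 proteins, and windows of the same name were united over the lists. This gave 9091 distinct windows of 601384 in all, carried by 1545 gene names and making 14318 entries in the 9 lists. Their median length was 95 nt. The series asked where candidate regulators of poly(A) site choice bind RNA, as its title states.

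eCLIP crosslinks proteins to RNA in cells, recovers 1 protein with its bound RNA fragments and sequences them (IP library) beside fragments from the starting material (input library). All 36 libraries came from untreated HEK293T cells, an established line of human embryonic kidney origin, with 2 IP and 2 input replicates for each of CPSF5, CPSF6, EIF4B, GRB2, LGALS3, MBNL2, RBM10, RBM22 and RNPS1. The antibody was directed at the protein or at a V5 tag, and the labels do not say which protein was recovered by which. The deposited tables hold windows already called in both replicates, with reads summed over them, so no value per library was left for a test between proteins. Values below are descriptions, and intervals are exact binomial 95% intervals that cover counting error only.

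LncRNAs are transcripts, mostly spliced and polyadenylated, that are not known to encode a protein. XIST coats the inactive X chromosome, NEAT1 scaffolds nuclear paraspeckles, MALAT1 lies in nuclear speckles, and NORAD is a cytoplasmic RNA that binds Pumilio proteins. Other lncRNAs are the precursors from which microRNAs (miRNAs) or small nucleolar RNAs (snoRNAs) are cut, and some are transcribed copies of protein-coding genes. CPSF5 (NUDT21) and CPSF6 form the cleavage factor Im complex of 3' end processing. RBM10, RBM22 and MBNL2 are splicing factors or regulators, RNPS1 joins the exon junction complex, and EIF4B assists scanning of mRNA leaders. GRB2 links receptor kinases to their signalling partners, and LGALS3 is a lectin.

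The label of these windows held in part. Of the 9091 windows, 45.8% (interval 44.8 to 46.9) were in genes that the tables type as lncRNA, 31.8% (30.8 to 32.7) in protein-coding genes, 22.1% (21.3 to 23.0) in transcribed pseudogenes and 0.275% in miRNA genes. By the leading transcript type of the tables, 45.3% were lncRNA, 30.9% processed transcript and 21.6% (1965 windows) protein-coding, nearly all of the last in protein-coding genes, where they made up 1957 of 2889 windows. All 1965 also carried another feature type and a noncoding transcript type, so a coding and a noncoding transcript overlap there and cannot be told apart. No other feature type overlapped 56.9% of the windows, 38.5% also lay in an intron of another transcript, and 7.01% carried more than 1 gene name. Transcribed pseudogenes and their parent genes are near-identical copies, so reads can be split between them by the alignment and their windows are uncertain as to source.

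The sequences that carry the positional results are shown first, all from RefSeq on GRCh38.p14. The strongest CPSF5 window lay over the let-7a-1 hairpin in the host gene MIRLET7A1HG on chromosome 9, plus strand, and the neighbouring let-7f-1 and let-7d hairpins also held CPSF5 windows. The hairpins are printed 5' to 3' with the mature miRNA arms in capitals, at chr9:94175957-94176036, chr9:94176347-94176433 and chr9:94178834-94178920.
let-7a-1: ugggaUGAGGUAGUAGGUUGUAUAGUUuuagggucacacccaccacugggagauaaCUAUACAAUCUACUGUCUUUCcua
let-7f-1: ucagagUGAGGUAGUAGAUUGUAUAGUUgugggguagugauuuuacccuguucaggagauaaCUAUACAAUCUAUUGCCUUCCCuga
let-7d: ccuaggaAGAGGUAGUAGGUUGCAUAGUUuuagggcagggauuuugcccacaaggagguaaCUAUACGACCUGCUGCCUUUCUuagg

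The 3 mature 5p arms share a single seed, shown here in capitals as bases 2 to 8, and repress mRNAs with matching sites.
let-7a-5p: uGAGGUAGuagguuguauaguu
let-7f-5p: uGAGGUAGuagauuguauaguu
let-7d-5p: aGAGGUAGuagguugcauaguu

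The miR-34a hairpin, from a p53-induced miRNA gene, is shown because CPSF6, RNPS1 and CPSF5 each had a window over it. It lies on the minus strand at chr1:9151668-9151777, with the mature arms in capitals.
miR-34a: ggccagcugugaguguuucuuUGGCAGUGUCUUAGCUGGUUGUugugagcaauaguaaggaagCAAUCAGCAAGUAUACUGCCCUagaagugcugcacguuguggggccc

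At gene starts, the windows of XIST and NORAD are shown because 6 and 3 lists hold them. Capitals mark the listed window. The XIST line covers chrX:73852665-73852738, minus strand, and holds 59 bases of the 100-nt window chrX:73852624-73852723. The NORAD line covers chr20:36050911-36051033, minus strand, and its window, chr20:36050920-36051018, runs from 58 nt before the RefSeq start to 40 nt after it.
XIST: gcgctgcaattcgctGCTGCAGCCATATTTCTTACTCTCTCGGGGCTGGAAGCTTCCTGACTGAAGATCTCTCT
NORAD: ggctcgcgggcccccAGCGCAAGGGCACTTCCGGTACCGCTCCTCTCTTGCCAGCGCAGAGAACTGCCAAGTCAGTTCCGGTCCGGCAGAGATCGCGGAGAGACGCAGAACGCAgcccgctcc

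The last set is shown because EIF4B, and for most of them MBNL2, CPSF6 and RNPS1 as well, had windows of a few nt that end on the base just before the start in RefSeq's promoter table of an mRNA gene. These genes were picked by the highest enrichment among short windows that lie within RefSeq promoter entries, so the shortness follows from that choice. RPLP2 encodes a ribosomal stalk protein, SSR4 a subunit of the translocon-associated complex, COX7C a subunit of cytochrome c oxidase and ATF7IP a chromatin regulator. All are on the plus strand, at chr11:809952-809979, chrX:153794650-153794676, chr5:86617921-86617947 and chr12:14365665-14365692, with the window in capitals.
RPLP2: ttgcgtcggcgccTTccttttcctccct
SSR4: ggagctcgtTTTCTTTTCctctaggca
COX7C: ccgccccATTTCCCATCTTTcttttca
ATF7IP: gaagcgggtttGTTTTTgaatctgcgga

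From the first base of the window, a run of pyrimidines covered 15 nt in RPLP2, which is all that is shown, and 13 nt in SSR4, while the windows of COX7C and ATF7IP opened with a purine. The RPLP2 window, 2 nt long at chr11:809965-809966, held 283 EIF4B reads against 5 input reads, 78 against 4 for MBNL2, 68 against 4 for CPSF6 and 65 against 2 for RNPS1. All 4 lists that hold it thus had more than 10 IP reads for each input read there. Which of the overlapping transcripts of these genes the reads came from cannot be told apart.

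The share of each list that lay in lncRNA exons was small throughout and differed between proteins. It was 4.88% for RBM22 (interval 4.43 to 5.35, 423 windows), 3.28% for EIF4B (3.14 to 3.41, 2251 windows), 2.92% for RBM10 (2.73 to 3.12, 834 windows) and 2.83% for CPSF6 (2.75 to 2.92, 4406 windows). RNPS1 had 2.50% (2.42 to 2.58, 3816 windows), CPSF5 1.70% (1.58 to 1.84, 661 windows), LGALS3 1.60% (0.915 to 2.58, 16 windows) and MBNL2 1.45% (1.34 to 1.57, 624 windows). GRB2, whose list is the longest, had the lowest share at 0.442% (0.418 to 0.467, 1287 windows). RBM22 and GRB2 were the ends of this order, and their intervals overlapped with no other list.

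Read the other way, the lists differed in how many of the 9091 windows they held. CPSF6 held 48.5% of them, against 25.9% of all distinct windows, and RNPS1 42.0% against 25.4%. EIF4B held 24.8% against 11.4%, RBM10 9.17% against 4.75%, and RBM22 4.65% against 1.44%. For CPSF5 the pair of values was 7.27% and 6.46%, for MBNL2 6.86% and 7.14%, and for LGALS3 0.176% and 0.167%. On this base these 3 lists were the nearest to their background. GRB2 held 14.2% against 48.4% and was the furthest below it. The length of the GRB2 list also lowers the background of the others. Without it 315829 of the 601384 windows were left, but 8063 of the 9091. On that base the background shares would rise more than the lncRNA exon shares. The excesses of CPSF6, EIF4B, RBM10 and RBM22 would shrink. RNPS1, CPSF5, MBNL2 and LGALS3 would lie below their background. Windows of a gene are not independent, and RNA abundance and depth were not held equal between lists.

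**Figure D1:**
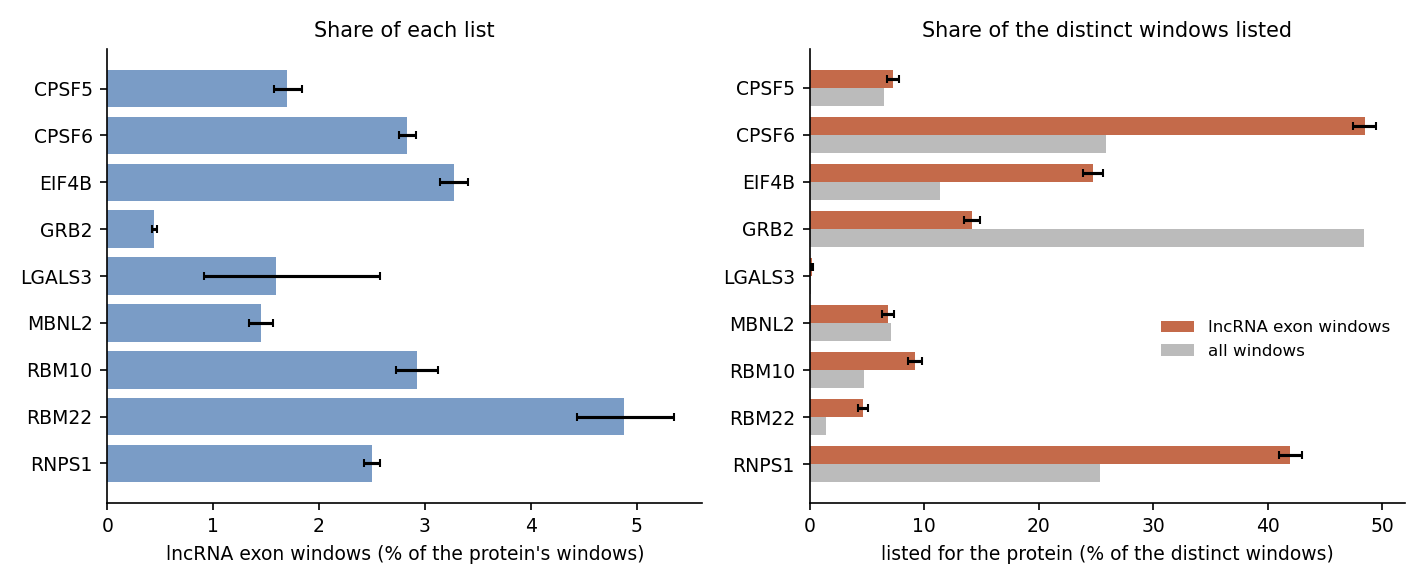
Left, lncRNA exon windows as a percentage of each protein's list; right, the percentage of the 9091 distinct lncRNA exon windows and of all 601384 distinct windows listed for each protein. Error bars are exact binomial 95% intervals; RBM22 stands highest on the left at 4.88%, and GRB2 falls from 48.4% of all windows to 14.2% of lncRNA exon windows on the right.

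Enrichment in these windows was lower than in the other windows of the same list by median. The log2 enrichment of IP over input, the authors' own value, has an unstated baseline, so values of different lists are set side by side below without being ranked. It is that of the lower replicate unless stated. Its median over lncRNA exon windows was 2.56 for CPSF5, 2.35 for CPSF6, 2.66 for EIF4B, 2.82 for GRB2, 2.27 for LGALS3, 2.33 for MBNL2, 2.46 for RBM10, 2.04 for RBM22 and 2.84 for RNPS1. The other windows of the same list had a higher median in all 9 lists, by most for GRB2 at 3.38 and by least for MBNL2 at 2.39. The median gap between the replicates of a window was 0.51 for LGALS3 to 0.83 for RNPS1. In each list it exceeded the difference between its lncRNA exon windows and its other windows. A gap within single windows does not measure the error of a median over many windows. Median IP reads per window ran from 28 (MBNL2) to 63 (RBM10) and median input reads from 2 (RNPS1) to 14 (LGALS3). No input read fell in 16.0% of RNPS1 and 14.2% of GRB2 windows, so single values there rest on few reads.

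The kind of gene behind the windows differed by protein. Genes typed lncRNA held 66.0% of the CPSF5 windows (interval 62.2 to 69.6) and 59.4% of those of EIF4B (57.3 to 61.4), but 28.3% of those of RBM10 (25.3 to 31.5). RBM10 had 58.6% (55.2 to 62.0) and GRB2 48.9% (46.1 to 51.6) in protein-coding genes. Transcribed pseudogenes held 32.7% of RNPS1, 32.5% of MBNL2 and 28.2% of CPSF6 windows, and 6.20% of those of CPSF5. For RBM10 and GRB2, 77.1% and 67.4% of windows also carried another feature type, against 28.4% for CPSF5 and 28.7% for EIF4B. Base composition differed as well, with a median GC content of 36.7% for CPSF5, 45.5% for RBM22, 58.4% for MBNL2 and 61.2% for EIF4B. In each of these lists it was near that of all windows of the list, at 35.8%, 49.0%, 56.0% and 61.8%.

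Sharing between lists was near the background once the GRB2 list was set aside. Of the 9091, 59.3% were in 1 list and 40.7% in 2 or more, against 22.3% of all distinct windows. Without the GRB2 list the shares in 2 or more were 44.1% of 8063 lncRNA exon windows and 41.2% of 315829 windows of all types. The GRB2 windows were the least shared, with 79.9% in no other list, although this value was 98.1% over all GRB2 windows. RBM22 had 6.15% of its lncRNA exon windows to itself, against 17.7% over its whole list, and LGALS3 none of 16, against 6.59%. CPSF6 and RNPS1 had 2377 windows in common, 53.9% of the CPSF6 and 62.3% of the RNPS1 windows, close to 56.3% and 57.3% over all their windows. CPSF6 also held 333 of the RBM22 windows, 78.7% of them against 68.8% over the whole RBM22 list. CPSF5 shared 166 windows with its complex partner CPSF6, which is 25.1% of the CPSF5 windows against 14.1% over the whole CPSF5 list, and 3.77% of the CPSF6 windows. A window missing from a list was not enriched there or not covered by enough reads, which cannot be told apart.

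Few genes carried many windows. The median gene name had 3 windows, 28.0% had 1, and the 15 leading names together held 955, or 10.5%. A single name was found in 1 list in 536 cases and in 7 or more in 22 cases, 1.42% of the 1545. Over windows of every type, 24.8% of gene names reach 7 or more lists. XIST and CAPN15 were in all 9 lists. XIST led with 150 windows, followed by DUXAP10 with 77, JPX with 76, DUXAP8 with 69, PKD1P1 (listed with AC138969.4) with 62, HERC2P2 with 61, ZNF37BP with 58, NEAT1 with 57, LINC00205 with 53 and NBPF8 with 52. RP11-156P1.3, SNHG17, NORAD, NSUN5P1 and LINC00342 followed with 51 to 46. In 10 of the 15 leading names the list with most windows also had the most IP reads.

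**Figure D2:**
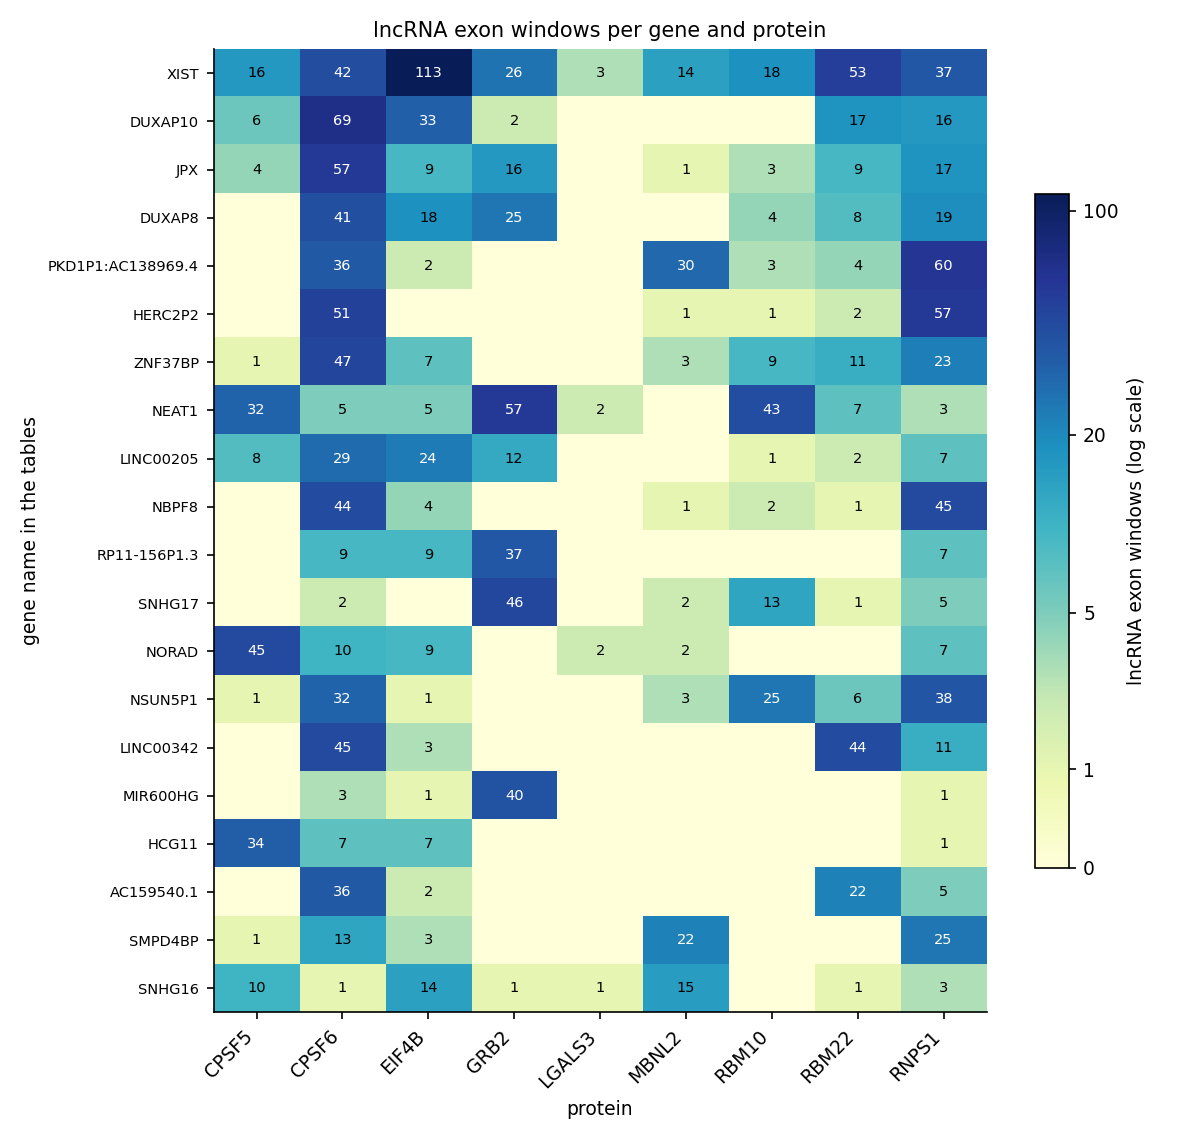
Number of lncRNA exon windows for each protein (columns) in the 15 gene names with most distinct windows and the 3 leading names of each list (rows); colour follows the number on a log scale, and empty cells are 0. CPSF5 stands out in NORAD (45), HCG11 (34) and NEAT1 (32), GRB2 in NEAT1 (57), SNHG17 (46) and MIR600HG (40), and EIF4B in XIST (113).

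XIST was the one gene typed lncRNA on which every protein had windows. All 9 lists had some in its first 3000 nt, and the lists differed in what they held beyond. The gene lies on the minus strand of the X chromosome, with the RefSeq start at 73852714 and a length of 32059 nt, and distances are genomic. GRB2 had 26 adjoining windows from the start to 2588 nt, with 281155 IP and 12502 input reads, a median enrichment of 3.68 and a maximum of 5.02. RBM22 had 25 adjoining windows to 2488 nt, with 162213 and 15279 reads. They included its 3 strongest lncRNA exon windows, chrX:73852424-73852523 at 5.93, chrX:73851924-73852023 at 5.78 and chrX:73852524-73852623 at 5.74, all centred within the first 740.5 nt of the gene. The first part of XIST holds the A repeat, known to be needed for gene silencing. The 16 CPSF5 and 3 LGALS3 windows also lay within the first 3000 nt, at up to 2.07 and 1.64. CPSF6 had 10 windows there, 9 of them adjoining from the start to 890 nt, at up to 2.19, RNPS1 3, and MBNL2 and RBM10 1 each.

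Beyond that the pattern changed. EIF4B had 28 windows in the first 3000 nt, 69 from 3000 to 11000 nt and 16 farther on, with an unbroken run of 50 windows from 5286 to 10280 nt that held 130016 IP and 57025 input reads. In the stretch from 3000 to 11000 nt, MBNL2 had 6 windows, RNPS1 1 and the other lists none. From 11000 nt on, CPSF6 had 32 windows with a median of 2.35, RNPS1 33 with 2.22, RBM22 28 with 0.88 and RBM10 17 with 1.46. MBNL2 had a run of 7 adjoining windows from 24730 to 25423 nt, with a maximum of 5.15 on 1735 IP and 1337 input reads in the run. GRB2, CPSF5 and LGALS3 had none there. The edges at 3000 and 11000 nt were chosen after the positions were seen.

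**Figure D3:**
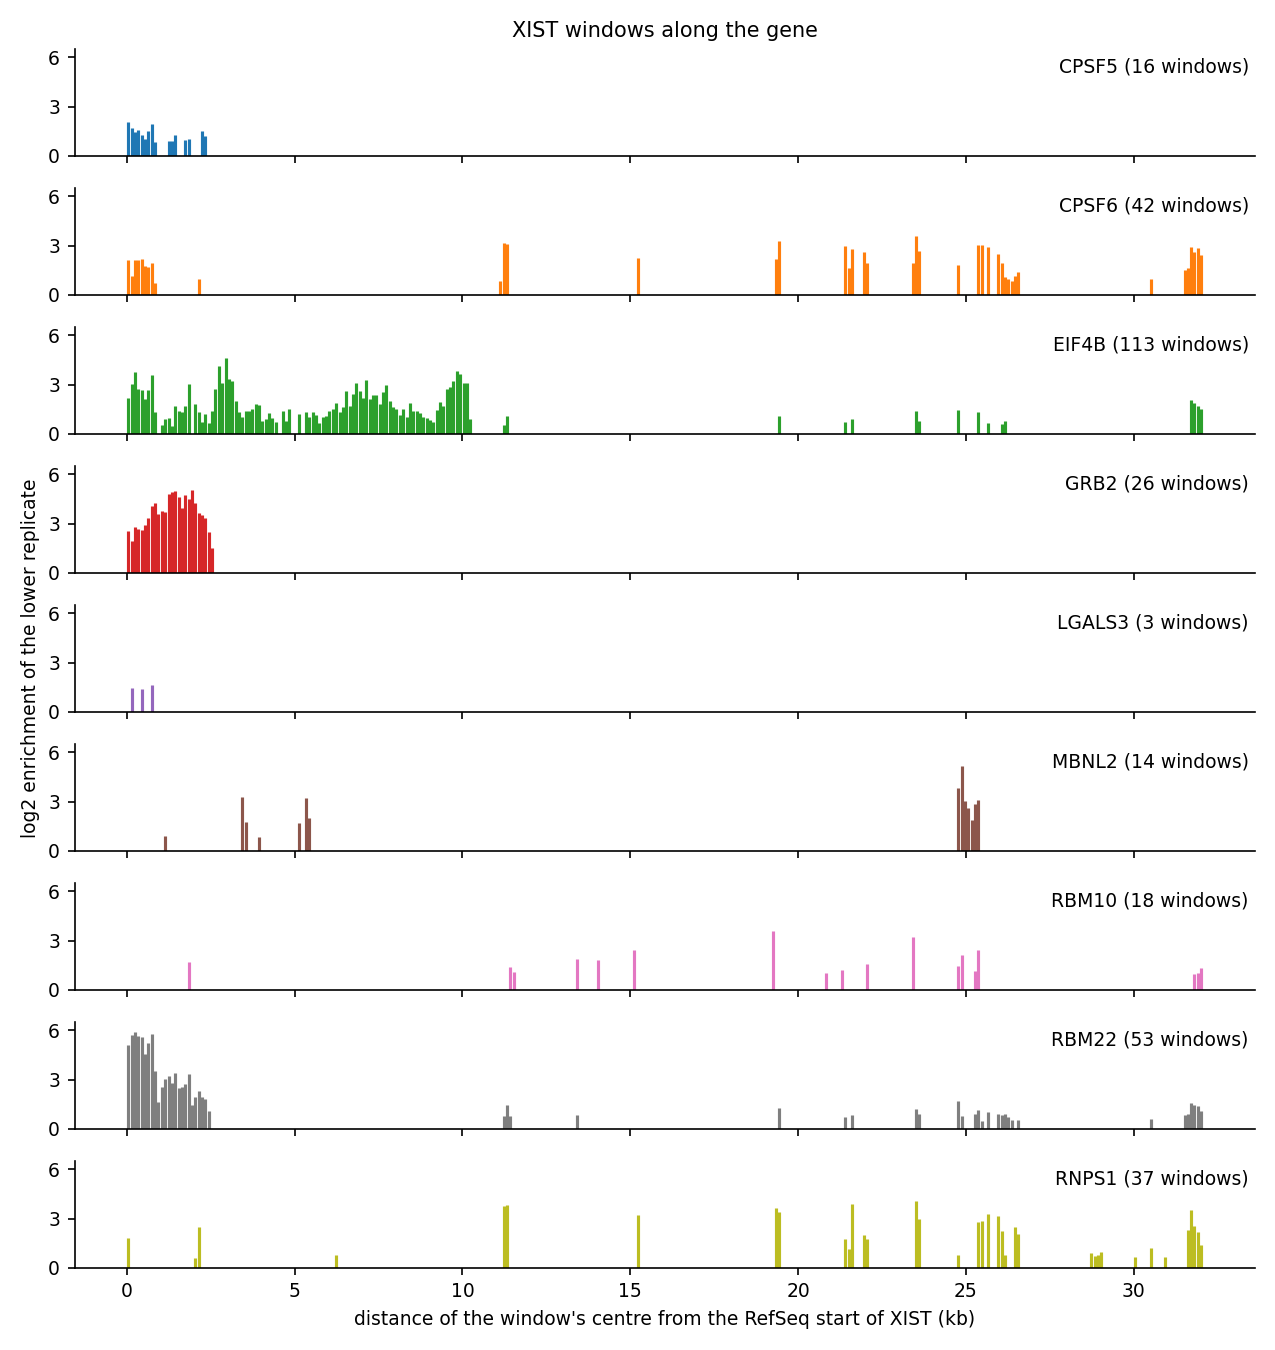
Log2 enrichment of the lower replicate (vertical) of each listed XIST window against the distance of its centre from the RefSeq start in kb (horizontal), 1 panel per protein. GRB2 and CPSF5 windows end before 3000 nt, the longest EIF4B run ends at 10280 nt, and CPSF6, RNPS1 and RBM10 windows are mostly beyond 11000 nt.

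XIST weighed more in reads than in windows in 8 of the 9 lists, the exception being LGALS3 with 17.8% of reads and 18.8% of windows. It held 89.1% of the RBM22 IP reads in lncRNA exon windows but 12.5% of the windows, 67.6% and 2.02% for GRB2, 62.7% and 5.02% for EIF4B, and 27.6% and 0.953% for CPSF6. LncRNA exon windows of all genes held 26.7% of the RBM22 IP reads in listed windows, against 1.00% (LGALS3) to 5.62% (RBM10) in the other lists.

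Its neighbours in the X-inactivation centre were listed too. JPX, which activates XIST, had 76 windows, 57 of them for CPSF6, 17 for RNPS1 and 16 for GRB2. The GRB2 windows of JPX lay between 14191 and 22925 nt from the RefSeq start, whereas the CPSF6 windows reached from 287 to 68571.5 nt and had their maximum of 4.10 at 55448.5 nt. FTX had 39 windows, with 28 for CPSF6, 14 for RNPS1, 9 for CPSF5 and 6 for GRB2. The strongest RNPS1 window of FTX, chrX:74218631-74218725, reached 5.74 and 6.33 in the replicates on 73 IP reads without any input read. XIST, JPX and FTX made up 265 of the 478 windows on the X chromosome. FIRRE, an X-linked nuclear lncRNA, had 9 windows, all of them listed for RNPS1.

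NEAT1 had GRB2 windows along its whole length, and most of these were also listed for RBM10 or CPSF5. All 57 distinct NEAT1 windows were in the GRB2 list, from 49 to 22592.5 nt along a gene of 22743 nt, with 41994 IP and 6484 input reads and a maximum of 3.47. RBM10 had 43 windows, 35298 and 4416 reads and its maximum of 4.29 at chr11:65434269-65434368, where 2284 IP reads met 48 input reads. CPSF5 had 32 windows with a maximum of 3.39 at chr11:65431975-65432073. RBM22 had 7 windows, CPSF6 and EIF4B 5 each, RNPS1 3 and LGALS3 2, and MBNL2 had none. MALAT1, which lies next to NEAT1, showed another order. RNPS1 had 27 windows there and CPSF6 26, with maxima of 3.26 and 2.93 at adjoining windows (chr11:65500448-65500546 and chr11:65500348-65500447), while RBM10 had 6, CPSF5 5 and GRB2 3. The RBM10 maximum was 3.78, at chr11:65506318-65506416 on 42 IP reads against 2. Of the 14 nuclear lncRNAs in the list used here, 5 had windows (NEAT1, MALAT1, JPX, FTX and FIRRE), in a median of 8 lists per gene, against 2 for all 1545 gene names.

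By windows NORAD was mainly a CPSF5 gene, while EIF4B, with windows toward its start, had the most IP reads of any list. It had 47 windows, of which CPSF5 held 45, spread from its start to 5293.5 nt of 5343 nt, with 4607 IP and 577 input reads, a median of 2.98 and a maximum of 5.32 at chr20:36045912-36046009, near the 3' end. EIF4B had 9 NORAD windows, centred from the start to 973 nt, with 6180 IP and 126 input reads. Those nearest the start, the one printed above and chr20:36050822-36050919, held 1616 and 2689 IP reads, at 5.12 and 5.39. The window printed above had 99 reads and 3.02 in the CPSF5 list, and 90 reads and 2.28 in the CPSF6 list. GRB2, RBM10 and RBM22 had no NORAD window.

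Among other cytoplasmic lncRNAs, CPSF5 had the most windows of any list in HCG11 and OIP5-AS1, but not in FGD5-AS1. HCG11 had 34 CPSF5 windows, with a maximum of 5.76 on 78 IP reads against 1, and 7 each for CPSF6 and EIF4B, the latter within the first 651.5 nt. OIP5-AS1 had 17 for CPSF5 of 20 in all. FGD5-AS1 had 20 for CPSF6, 18 for CPSF5 and 17 for EIF4B, and the last CPSF5 window, centred 54 nt before the RefSeq end, was its strongest at 5.75 with 141 IP reads against 1. Of 26 cytoplasmic or bifunctional lncRNAs in the list used here, 18 had windows, 17 of them for RNPS1, 16 each for CPSF6 and EIF4B, 9 for CPSF5, 8 for MBNL2, 5 each for RBM10 and RBM22, 3 for GRB2 and 1 for LGALS3. As shares of the 18 these were 94.4% for RNPS1, 88.9% for CPSF6 and for EIF4B, and 50% for CPSF5. MBNL2 had 44.4%, RBM10 and RBM22 27.8% each, and GRB2 16.7%. In the same order of lists, the shares over all 1545 gene names were 60%, 59.5%, 46.1%, 12.8%, 18.2%, 20.1%, 9.45% and 15.8%. The GRB2 share was thus near its background. Genes of the fixed lists were looked up by name, so a gene held under another symbol counted as absent. TUG1 and GAS5 had 5 and 2 windows.

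Host genes of miRNAs made up a larger part of the CPSF5 windows than of any other list. Genes named as miRNA hosts held 68 of the 661 CPSF5 windows, 10.3%, against 3.11% for GRB2 and 2.11% for CPSF6. They held under 1% for EIF4B, RBM10, RBM22 and RNPS1, and none for MBNL2 and LGALS3. Single genes weighed much here, since MIRLET7A1HG held 31 of the 68 CPSF5 windows and MIR600HG all 40 of those of GRB2. MIRLET7A1HG had 31 CPSF5 windows with 2937 IP and 271 input reads, 18 CPSF6 windows with 1041 and 179, and 1 RNPS1 window with 14 and 3. The strongest CPSF5 window of all lncRNA exons, chr9:94175964-94176063, covered 73 nt of the let-7a-1 hairpin printed above and held 106 IP reads and no input read, at 6.73 and 7.68 in the replicates. The window upstream of it, chr9:94175865-94175963, reached 5.86 with 596 reads against 16 and covered the other 7 nt. The windows over let-7f-1 reached 4.90 and 4.21 and those over let-7d 4.49 and 2.91, so all 3 hairpins lay wholly or in part in CPSF5 windows.

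CPSF6 windows touched the same hairpins, at up to 3.20 for let-7a-1, 1.53 for let-7f-1 and 2.22 for let-7d. The CPSF6 maximum in this gene, 4.49, lay downstream of let-7d, at chr9:94179264-94179363 with 119 IP reads against 9. In all, 20 windows, 0.220% of the 9091, overlapped 14 hairpins. Of these, 15 were listed for CPSF5, 12 for CPSF6, 6 for RNPS1 and 1 each for EIF4B and RBM10. As shares of the lncRNA exon windows of a list these were 2.27% for CPSF5, 0.272% for CPSF6 and 0.157% for RNPS1. For RBM10 and EIF4B they were 0.120% and 0.0444%. Several of the CPSF5 windows were in the single gene MIRLET7A1HG. The share over windows of every type was not counted. At miR-34a, chr1:9151639-9151736 covered 69 nt of the hairpin, with 129 IP reads against 5 and 4.50 for CPSF6, 44 against 4 and 3.23 for RNPS1, and 30 against 11 and 2.06 for CPSF5. MIR34AHG had 31 windows, 30 of them for CPSF6. miR-421 within FTX, miR-15a within DLEU2, miR-503, miR-296 and miR-10a were touched by further CPSF5 windows at 4.44 or below, other than miR-503, whose window at 5.35 overlapped it by 5 nt.

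**Figure D4:**
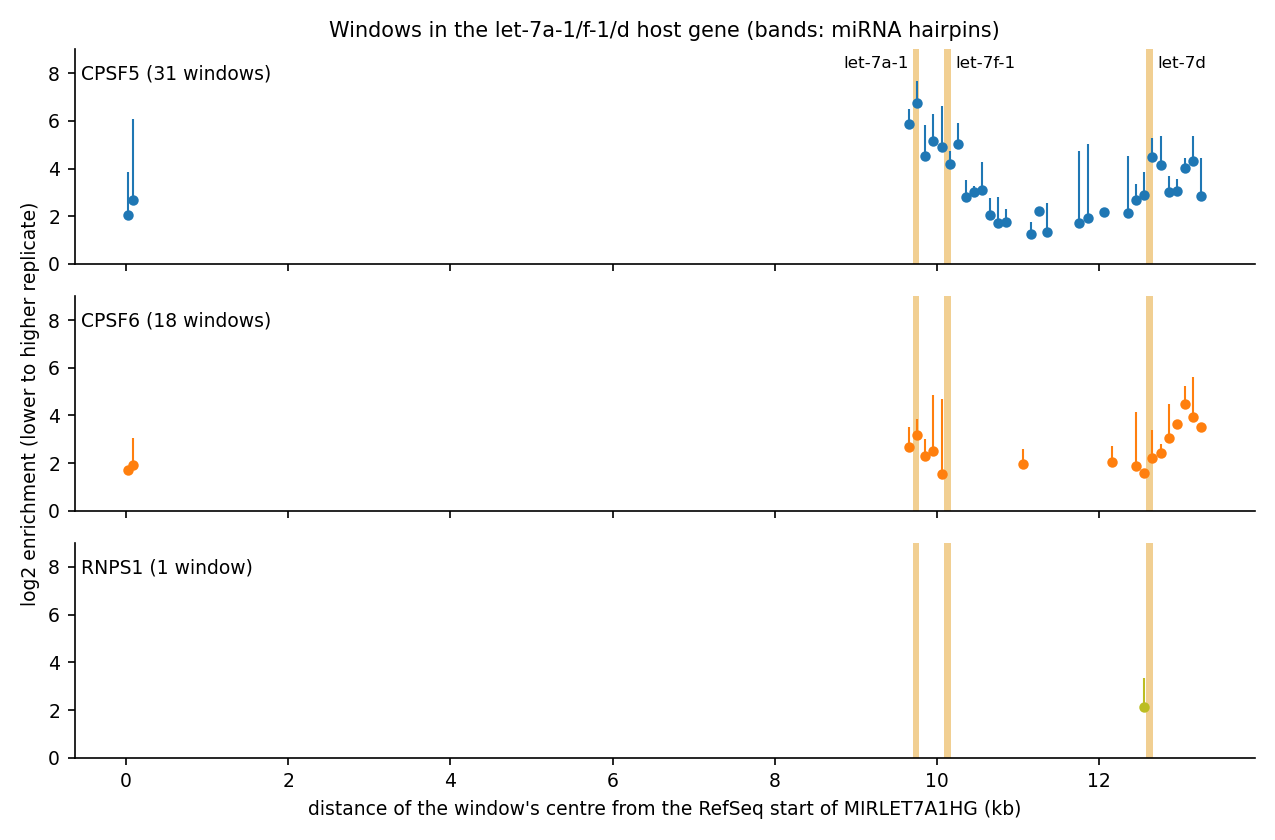
Log2 enrichment of each listed window in MIRLET7A1HG, from the lower (point) to the higher replicate (end of the line), against the distance of its centre from the RefSeq start in kb; yellow bands are the hairpins. The CPSF5 windows peak at 6.73 over let-7a-1, and CPSF6 windows peak at 4.49 downstream of let-7d.

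Other miRNA hosts divided differently. MIR600HG was almost wholly a GRB2 gene here, with 40 of its 44 windows in that list, 1294 IP and 86 input reads and a maximum of 5.98 at chr9:123111991-123112090, where there were 62 IP reads and none from input. MIR503HG had 9 CPSF5, 8 CPSF6 and 7 RNPS1 windows. MIR17HG, host of the miR-17 cluster, had 8 for CPSF6 and 5 for CPSF5, and MIRLET7BHG had 7, all for CPSF5. Of 12 miRNA hosts in the list used here these 4 had windows. MIRLET7A1HG and MIR34AHG were not on that list and are named for their values. The strongest CPSF6 lncRNA exon window was also in a miRNA host, MIR4453HG, at chr4:152539064-152539163, where it reached 5.85 on 54 IP reads and none from input.

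Host genes of snoRNAs took their largest share of a list of over 100 windows in MBNL2. They held 7.69% of the MBNL2, 4.20% of the RBM10, 3.96% of the GRB2, 3.29% of the EIF4B and 3.18% of the CPSF5 windows. SNHG17 had 46 GRB2 windows with 3511 IP and 287 input reads and a maximum of 5.20, and 13 RBM10 windows. The RBM10 maximum there, chr20:38421197-38421295, was the third strongest of that list at 6.03 on 72 IP reads and none from input, and the same window had 69 against 2 for GRB2. SNHG16 had 15 windows for MBNL2, 14 for EIF4B and 10 for CPSF5, and in SNHG15 the counts were 12 for MBNL2, 11 for EIF4B and 13 for RNPS1. Of 37 snoRNA hosts in the list used here 20 had windows, 16 each for CPSF6, EIF4B and RNPS1 (80%). MBNL2 had windows in 11 (55%), RBM22 in 9 (45%), CPSF5 in 7 (35%), RBM10 in 6 (30%), GRB2 in 3 (15%) and LGALS3 in 1 (5%). Over all gene names the shares were 59.5% for CPSF6, 46.1% for EIF4B, 60% for RNPS1 and 18.2% for MBNL2. They were 9.45% for RBM22, 12.8% for CPSF5, 20.1% for RBM10, 15.8% for GRB2 and 0.777% for LGALS3. GRB2 was again near its background.

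RBM22 and CPSF6 met on a few lncRNAs. LINC00342 on chromosome 2 had 45 CPSF6 and 44 RBM22 windows among 46 distinct ones, with 3648 IP and 386 input reads for CPSF6 and 2255 and 280 for RBM22. The RBM22 maximum was 5.42, with 83 reads against 1, at chr2:95819047-95819143, and that of CPSF6 4.69 at chr2:95818369-95818465. AC159540.1, also on chromosome 2, had 36 windows, all of them in the CPSF6 list and 22 in that of RBM22. RP11-734K23.9 had 25 and 11. Names of the form LINC and a number held 11.6% of the RBM22 windows, against 4.93% for CPSF6 and at most 5.64% in the other lists apart from LGALS3, with 2 of 16. LINC00342 made up 44 of these 49 RBM22 windows, and without that gene the shares were 1.32% for RBM22 and 3.94% for CPSF6. LINC00205 was divided over 7 lists, with 29 windows for CPSF6, 24 for EIF4B, 12 for GRB2 and 8 for CPSF5. The EIF4B windows reached from 46 to 7424 nt, and the CPSF5 windows from 7325 to 9209 nt of a gene of 9303 nt.

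Genes with antisense names, which end in AS and a number, held 1059 of the 9091 windows. Some are not typed lncRNA, such as TP73-AS1 (41 windows) and EMC3-AS1 (30), typed as transcribed pseudogenes. The class made up 19.3% of the EIF4B, 12.2% of the CPSF6 and 10.9% of the CPSF5 windows. It made up 9.36% of those of RNPS1, 7.37% for MBNL2, 6.12% for RBM10, 6.06% for GRB2 and 5.91% for RBM22. LGALS3 had none among 16. Among leading genes, ZNF503-AS2 had 18 RBM10 windows with 1745 IP and 87 input reads, a maximum of 5.30 at chr10:75408503-75408598, and 11 EIF4B windows. MCM3AP-AS1 and PSMA3-AS1 had 39 and 36 CPSF6 windows. The sources used here do not say whether reads were counted by strand. Without strand, an antisense RNA and its partner cannot be told apart. Among lncRNAs without such a name, RP5-984P4.6 had 15 RBM10 windows and RP11-54O7.17 had 18 for EIF4B.

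Of 2011 distinct windows in transcribed pseudogenes, 83.8% were in the CPSF6 or RNPS1 list and 805 (40.0%) in both. Over all lncRNA exon windows, CPSF6 held 48.5%, RNPS1 42.0% and both lists 26.1%. Most of the 83.8% is thus also found over all lncRNA exon windows. DUXAP10, a copy of a double homeobox gene, had 69 CPSF6 windows with 6411 IP and 1063 input reads, 33 for EIF4B, 17 for RBM22 and 16 for RNPS1. RP11-480A16.2 had 29 windows, all of them in the GRB2 list alone. The DUXAP10 relative DUXAP8, typed as lncRNA, had 41 for CPSF6, 25 for GRB2 and 18 for EIF4B. RNPS1 led in HERC2P2 (57 of 61), NBPF8 (45 of 52) and PI4KAP1 (40 of 41), where CPSF6 had 51, 44 and 29. PKD1P1 and PKD1P3, copies of part of the polycystin gene, are typed protein-coding in the tables under the names they share with AC138969.4 and NPIPA1. RNPS1 had 60 of 62 and 38 of 42 windows there, and CPSF6 had 36 and 22. MBNL2 had its most windows in PKD1P1 with 30, then SMPD4BP with 22, and 14 in PKD1P3. RBM10 had 25 in NSUN5P1 and RBM22 15 in LRRC37A4P. ZNF37BP had 47 for CPSF6. Reads of near-identical copies could be split between them, so these counts are uncertain.

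In protein-coding genes, apart from the PKD1 copies, the names with most windows were RP11-159D12.5 (listed with RP11-159D12.2) with 43, MYSM1 with 40, SPG7 with 38, and DMAP1 and MSH5 with 33 each. CPSF6 led in MYSM1 (31) and SPG7 (28), RNPS1 in MSH5 (30) and GRB2 in the others. CLK2, a kinase of SR proteins, had 15 windows, with 14 for RNPS1 and 13 each for RBM10 and CPSF6, and SRSF11, an SR-related protein gene, had 18, with 12 for RBM10 and 10 for RNPS1. The strongest RBM10 windows were in PPDPF (chr20:63521364-63521437) at 6.62 on 211 IP reads and none from input, and in MSTO1 (chr1:155612761-155612843) at 6.15 on 88 and none. CASP8AP2 held the CPSF5 window next to that of let-7a-1 in strength, chr6:89874256-89874345, at 6.55 on 73 IP reads and none from input, centred 135.5 nt before the RefSeq end. GLCE held the third of CPSF6, with 43 and none at 5.55, CTBP2 the third of GRB2, with 104 and none at 6.40, and SHTN1 the third of RNPS1, with 176 against 2 at 6.34. For GRB2, RP11-159D12.5 (listed with RP11-159D12.2) had 39 windows and 16078 IP reads, and DMAP1 had 28 windows.

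Further strong windows lay in lncRNA genes. The strongest GRB2 window, chr15:92899211-92899308, was in CHASERR, an lncRNA next to CHD2, at 8.06 and 8.26 on 332 IP reads and none from input, and RP11-147L13.11 on chromosome 17 followed at 7.24 on 163 and none. Both were in no other list. CTC-444N24.11 on chromosome 19 held the third CPSF5 window, with 135 reads against 1 at 6.49. RP11-734K23.9 held the CPSF6 window next to that of MIR4453HG, with 53 and none at 5.83. The strongest RNPS1 window, in CH17-264L24.2 (listed with LL22NC03-80A10.6) on chromosome 22, had 150 reads against 1 at 6.84, and CPSF6 had 207 against 7 at 5.26 in the same window. UBE2Q2P2, a pseudogene, followed for RNPS1 with 50 and none at 6.37.

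Of the 9 lists, EIF4B and MBNL2 had the highest shares near gene starts and CPSF5 had the highest near gene ends. Of the distinct windows, 6806 (74.9%) could be matched to a RefSeq gene by name and chromosome. Of the matched EIF4B windows, 27.6% (480 of 1738, interval 25.5 to 29.8) were centred within 200 nt of the gene start, and 19.2% (93 of 485, 15.8 to 23.0) of those of MBNL2. The other lists had 1.71% (CPSF5) to 6.30% (RNPS1), and LGALS3 2 of 12. Over all windows of the list, EIF4B had 23.4% there and MBNL2 9.53%. The other lists also had lower values over all their windows than in lncRNA exons. Within genes typed lncRNA the values were 23.4% for EIF4B and 17.9% for MBNL2, so windows at mRNA genes did not make up all of them. EIF4B windows near starts had a median of 3.37, against 2.44 farther away, and a median GC content of 68.9%. For MBNL2 the medians were 2.20 and 2.36.

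The strongest EIF4B and MBNL2 windows lay at annotated starts. GTF2I, a transcription factor gene, had the first of EIF4B, chr7:74657667-74657717, which ends on the base before the RefSeq start, with 157 IP reads against 1 at 8.15 and 8.81, and 28 against 4 at 6.58 for MBNL2. RPLP2 followed at 8.04 for EIF4B and led for MBNL2 at 6.82. SSR4 was the third of MBNL2 at 6.15. Its window adjoins the start in RefSeq's promoter table but is centred 504 nt after the outermost start of the gene. MGAT5 was the third of EIF4B, centred 196.5 nt after the start, at 7.49 on 338 IP reads and none from input. GTF2I has transcribed pseudogene copies, so its reads may be split.

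At the other end, 6.84% of the matched CPSF5 windows (36 of 526, interval 4.84 to 9.35) were centred within 200 nt of the RefSeq gene end, against 2.49% for CPSF6 (1.99 to 3.08), 0.863% (EIF4B) to 2.06% (MBNL2) for the others, and 0 of 12 for LGALS3. For CPSF5 the value was 12.7% over all its windows, most of which are not lncRNA exons, so its lncRNA exon windows were below its own list. CPSF6 (0.679% over all its windows), RBM22 (0.669%), RNPS1 (0.506%), MBNL2 (1.23%), RBM10 (0.328%) and GRB2 (0.0302%) were above theirs. EIF4B was level with its own at 0.861%. Besides FGD5-AS1 and CASP8AP2, the CPSF5 windows near ends included the last NORAD window, with 136 reads against 4 at 4.77, and one in HOTAIR, with 20 and none at 4.72. The ends used are RefSeq's most distal ones.

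**Figure D5:**
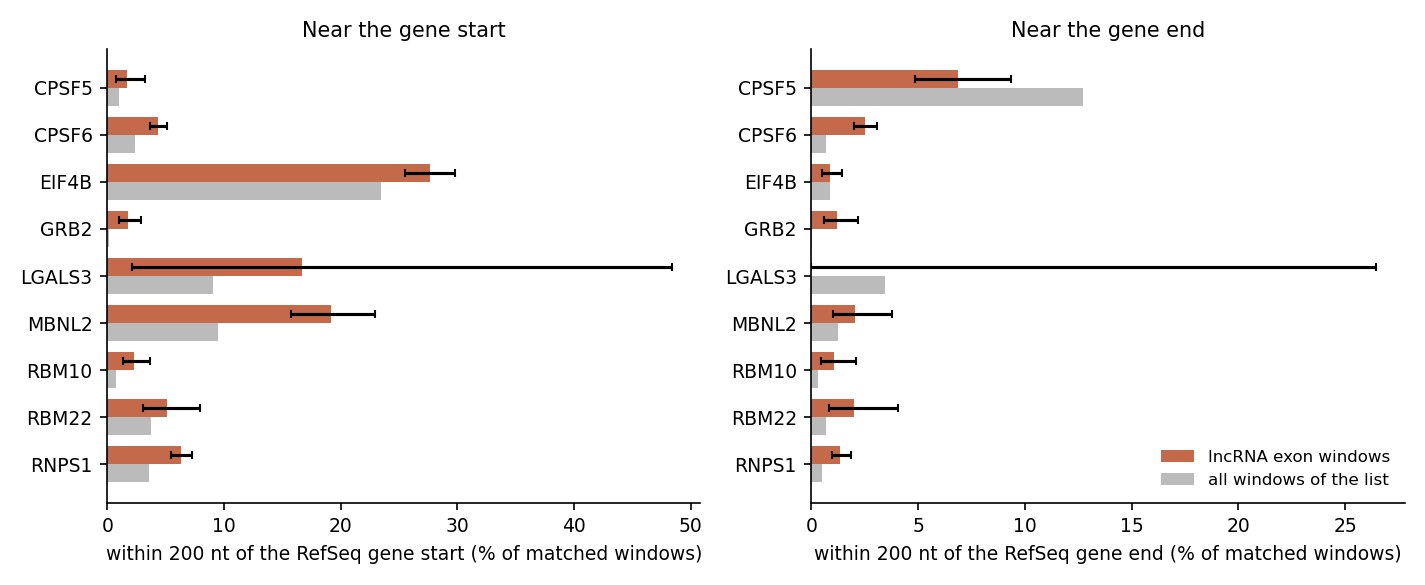
Percentage of matched windows centred within 200 nt of the RefSeq gene start (left) and gene end (right), for lncRNA exon windows with exact binomial 95% intervals and for all windows of the same list. EIF4B (27.6%) and MBNL2 (19.2%) are highest at starts and CPSF5 (6.84%) at ends, where its whole list has 12.7%. The wide LGALS3 bars rest on 12 matched windows.

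LGALS3 had 16 lncRNA exon windows in 12 gene names, and 15 of them were also CPSF5 windows. Its list as a whole shares 32.8% of its windows with CPSF5 and 77.2% with RNPS1, but 2 of the 16 were RNPS1 windows. The strongest were in CTD-2651B20.6 (chr15:45200402-45200478, 197 IP against 21 input reads, 3.29), RP11-473M20.16 (chr16:3157390-3157483, 109 against 16, 2.62) and the pseudogene SUZ12P1 (chr17:30709555-30709640, 21 against 7, 2.58). LINC00324 (chr17:8222293-8222390) had the most LGALS3 reads, 629 against 124, and in that window CPSF5 had 847 against 112, RBM22 330 against 118 and EIF4B 130 against 131. CTD-2651B20.7, next to CTD-2651B20.6 on chromosome 15, had 294 against 34. NORAD and NEAT1 had 2 windows each.

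Windows listed for many proteins were few. Of the 9091, 10 (0.110%) were in 6 or more lists, against 0.0486% of all distinct windows. The long GRB2 list lowers this background, since 98.1% of its windows were in no other list. The 10 windows lay in XIST (6 windows), NEAT1 (3) and CAPN15 (1). The CAPN15 window, chr16:538301-538398 in a calpain family gene, was in 8 lists, all but GRB2, with 14 (MBNL2) to 90 (RBM10) IP reads and 3 (RNPS1) to 18 (RBM22) input reads. The NEAT1 window chr11:65423596-65423694 was in 7 lists, with 1914 IP reads against 149 for RBM10, 1435 against 188 for GRB2 and 170 against 169 for EIF4B. IP reads exceeded input reads most in the RBM10 and GRB2 lists there. No lncRNA exon window was in all 9 lists.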

How the data were processed

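The 36 libraries reach this text through 9 deposited tables, 1 per protein, of windows that the authors called enriched in IP over input in both replicates. Per the file headers, the tables give IP and input read counts summed by the authors over replicates, the lower, mean and higher log2 enrichment of the replicates, a q-value and the GC fraction of each window. The highest deposited q-value was 0.199879. The build is hg38, per the submitters' processing notes. The annotation version, aligner and caller were not given in the sources used here.

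Windows were selected by their leading feature type and joined by name. Python 3.11.15, pandas 2.3.3, scipy 1.17.1 and matplotlib 3.10.9 were used, and intervals are Clopper-Pearson. Distances run from the window's centre to RefSeq gene ends on GRCh38.p14, introns included, with 200 nt as the limit for near. Selection, run and distance steps were tested on simulated data. No test was run, since no value per library was left.

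The text names, per list, the 5 genes with most windows and the 3 strongest windows with at least 20 IP reads. Over all lists it names the 15 leading genes, the genes and windows in 7 or more lists, and genes of fixed lists; other names were chosen after their values were seen. The members and lists were chosen with earlier results of these data known.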

Additional observations from a re-analysis of the deposited data

How the results depend on the processing

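No paired analysis was possible because the deposited tables sum reads over the replicates, and for the same reason leaving out a replicate was not possible. RBM22 had the highest share of its list in lncRNA exons in all settings tried except when a lncRNA exon was accepted anywhere among the feature types, where EIF4B did. GRB2 had the lowest except when weighted by IP reads, where LGALS3 did. The cause of these moves was not tested.

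With a q-value of at most 0.05 there were 5781 windows, 68.3% of them in 1 list. Shares were 1.53% for CPSF5, 3.11% for EIF4B, 0.510% for GRB2, 3.77% for RBM10 and 6.96% for RBM22. Medians were 3.11 for CPSF5, 3.35 for GRB2, 3.09 for RBM10 and 2.53 for RBM22. Shared windows were 1148 for CPSF6 and RNPS1, 276 for EIF4B and RNPS1, 267 for CPSF6 and EIF4B and 65 for CPSF5 and CPSF6. With at least 20 IP reads, 61.1% were in 1 list, EIF4B and RNPS1 shared 443, and shares were 3.10% for CPSF6, 0.513% for GRB2, 1.59% for MBNL2 and 2.64% for RNPS1.

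With no other feature type allowed, 5172 windows in 897 gene names were left. Shares were 1.22% for CPSF5, 1.71% for CPSF6, 2.33% for EIF4B, 0.144% for GRB2, 0.910% for MBNL2, 0.669% for RBM10, 2.39% for RBM22 and 1.41% for RNPS1. CPSF6 shared 1396 windows with RNPS1 and 104 with CPSF5. With a lncRNA exon anywhere among the types there were 24030 windows in 2768 names, 45.7% of them in 1 list. Shares were 5.89% for CPSF5, 8.09% for CPSF6, 10.4% for EIF4B, 0.480% for GRB2, 8.68% for LGALS3, 7.67% for MBNL2, 4.11% for RBM10, 8.59% for RBM22 and 9.59% for RNPS1. CPSF6 shared 9311 with RNPS1, 3015 with EIF4B and 658 with CPSF5, and EIF4B shared 3631 with RNPS1. Genes typed lncRNA, an alternative chosen after seeing the data, left 4166 windows in 538 names, 61.3% in 1 list. Shares were 1.12% for CPSF5, 1.32% for CPSF6, 1.95% for EIF4B, 0.187% for GRB2, 0.496% for MBNL2, 0.827% for RBM10, 2.62% for RBM22 and 0.943% for RNPS1. CPSF6 shared 956 with RNPS1 and 461 with EIF4B, and EIF4B shared 371 with RNPS1.

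Weighted by IP reads, shares were 2.51% for CPSF5, 4.24% for CPSF6, 4.02% for EIF4B, 3.13% for GRB2, 1.07% for MBNL2, 5.62% for RBM10, 26.7% for RBM22 and 2.83% for RNPS1. With adjoining windows joined there were 4389 runs, and shares were 2.52% for CPSF6, 2.73% for EIF4B, 0.492% for GRB2, 2.31% for RBM10, 3.97% for RBM22 and 2.28% for RNPS1. Windows in 1 list were 41.1% when an adjoining window counted as shared, and 55.9% without the GRB2 list, where the value over windows of all types was 58.8%. By the higher replicate, medians were 3.53 for CPSF5, 3.30 for CPSF6, 3.73 for EIF4B, 3.88 for GRB2, 2.78 for LGALS3, 3.24 for MBNL2, 3.69 for RBM10, 2.86 for RBM22 and 4.03 for RNPS1. By IP reads the XIST share was 17.4% for CPSF5, 27.6% for CPSF6, 62.7% for EIF4B, 67.6% for GRB2, 10.1% for MBNL2, 7.50% for RBM10, 89.1% for RBM22, 18.0% for RNPS1 and 17.8% for LGALS3.

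CPSF6 and RNPS1 led the pairs in 5 of 5 settings. Of 160 values for the other 32 pairs, 54 were within 1.5 times the value reported.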
